A study of Homo sapiens with 8 samples.

Results

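Classical protein tyrosine phosphatases were followed as a gene family in a pair of human multiple myeloma cell lines, the melphalan-resistant U266/LR7 and its parental line U266/s. Members were taken by symbol, as the genes named PTPR (receptor type) or PTPN (non-receptor type) with a transcript cluster that carried 1 gene symbol. This gave 32 of the 18417 genes measured, 15 of receptor type and 17 of non-receptor type. PTPRC and PTPRCAP also carry the prefix and were not counted as members, although PTPRC is a receptor phosphatase. PTPRA, PTPRJ, PTPRT and PTPRQ were not analysed here. PTPN20 had 4 transcript clusters for near-identical gene copies and is uncertain, since the arrays could assign its signal to any of them.

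Total RNA was measured on 8 one-colour Affymetrix arrays, 1 for each condition. For each line the conditions were melphalan (100 µM, a DNA-alkylating drug used against myeloma) together with inhibitors of miR-221 and miR-222 (100 nM; the combined treatment), melphalan alone, inhibitors alone, and control cells given a negative control oligonucleotide. RNA was collected 12 h after treatment. The melphalan-alone arrays carry a transfection tag of none, while the protocol text reads as if they too received the negative control. If the tags are right, this transfection difference is part of the melphalan and inhibitor comparisons. How U266/LR7 was derived, and whether it is 1 clone, is not given in the sources used here.

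Protein tyrosine phosphatases remove phosphate from tyrosine residues and so oppose tyrosine kinases. Receptor-type members span the plasma membrane and carry extracellular domains that bind matrix, heparan sulphate, contactins or the same receptor on a neighbouring cell. Non-receptor members sit in the cytoplasm, at the endoplasmic reticulum or in the nucleus, where SHP1, SHP2, PTP1B and TCPTP act on cytokine receptor, JAK and STAT signalling. In plasma cells and myeloma, interleukin 6 signals through JAK kinases and STAT3, a pathway that several of these enzymes restrain, whereas SHP2 promotes RAS signalling.

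The inhibitors were directed at the microRNAs miR-221 and miR-222, whose mature sequences from RefSeq (GRCh38.p14) are shown because they define the third treatment of the design. Capitals mark the seed, bases 2 to 8, which both microRNAs share as GCUACAU.
hsa-miR-221-3p, chrX:45746180-45746202, - strand: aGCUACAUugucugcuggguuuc
hsa-miR-222-3p, chrX:45747036-45747056, - strand: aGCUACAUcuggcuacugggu

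Promoter windows of 300 bases (250 before to 50 after the RefSeq gene start, GRCh38.p14) are shown for PTPRM and PTPRK, the members with the largest falls in U266/LR7, and for PTPRG, the member with the largest rise. Capitals mark GGGCGG or its reverse complement CCGCCC, the core of the GC box.
PTPRM promoter, chr18:7567066-7567365, + strand: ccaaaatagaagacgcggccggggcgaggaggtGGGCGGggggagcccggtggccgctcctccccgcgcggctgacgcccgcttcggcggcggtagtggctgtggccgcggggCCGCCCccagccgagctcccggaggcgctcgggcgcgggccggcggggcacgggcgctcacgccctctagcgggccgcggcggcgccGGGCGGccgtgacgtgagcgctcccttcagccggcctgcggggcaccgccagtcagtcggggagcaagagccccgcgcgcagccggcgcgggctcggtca
PTPRK promoter, chr6:128520550-128520849, - strand: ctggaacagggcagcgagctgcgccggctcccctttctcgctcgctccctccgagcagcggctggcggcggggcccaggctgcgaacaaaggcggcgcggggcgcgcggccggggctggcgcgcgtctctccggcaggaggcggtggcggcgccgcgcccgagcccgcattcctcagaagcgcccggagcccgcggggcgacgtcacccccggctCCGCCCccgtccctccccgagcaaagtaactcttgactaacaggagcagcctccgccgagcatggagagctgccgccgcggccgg
PTPRG promoter, chr3:61561321-61561620, + strand: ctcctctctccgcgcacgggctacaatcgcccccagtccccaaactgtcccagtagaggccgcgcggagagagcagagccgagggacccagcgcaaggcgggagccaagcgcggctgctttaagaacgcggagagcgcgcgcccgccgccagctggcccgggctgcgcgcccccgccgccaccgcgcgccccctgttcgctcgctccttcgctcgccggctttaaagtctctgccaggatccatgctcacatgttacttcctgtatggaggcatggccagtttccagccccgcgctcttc
The PTPRM window held 3 matches, the PTPRK window 1 and the PTPRG window 0. GC content was 80.7%, 76.3% and 68.7% in the order PTPRM, PTPRK, PTPRG, with 50, 44 and 34 CpG dinucleotides. Of the 29 members with a RefSeq promoter window, 19 (65.5%) held the motif on either strand. Among all 27305 RefSeq promoter windows of this length the count was 12149 (44.5%). These windows were not filtered by gene type or to the measured genes, whereas the members are all protein-coding, so the sets are not matched. Median GC content was 68.7% for the member windows and 58.3% for all windows. A match describes these letters only.

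Values were log2 signals after RMA, so differences are on the log2 scale and signals of different genes are not compared. The interquartile range of all clusters was 3.58 to 3.71 on 6 arrays, but 3.34 for U266/s under combined treatment and 3.25 for U266/s under melphalan alone. All 10 plasma cell markers, SDC1 and TNFRSF17 among them, lay above the lower quartile of genes on all 8 arrays. Below it on every array were 2 of 5 B cell markers (MS4A1 and CD22), 3 of 7 T and NK cell markers (CD3D, CD2 and CD4), 1 of 6 myeloid markers (LYZ) and 1 of 8 stromal and epithelial markers (DCN). Of the 32 phosphatase genes, 18 lay above the lower quartile on every array, 9 on some arrays and 5 on none. These 5 were PTPN20, PTPRB, PTPRO, PTPRR and PTPRZ1. In a line, fewer cells with a transcript and less transcript per cell cannot be told apart. Where arrays are said below not to overlap, this describes the same values that were tested and is not separate support. The share of all genes whose arrays do not overlap is not given here.

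**Figure D1:**
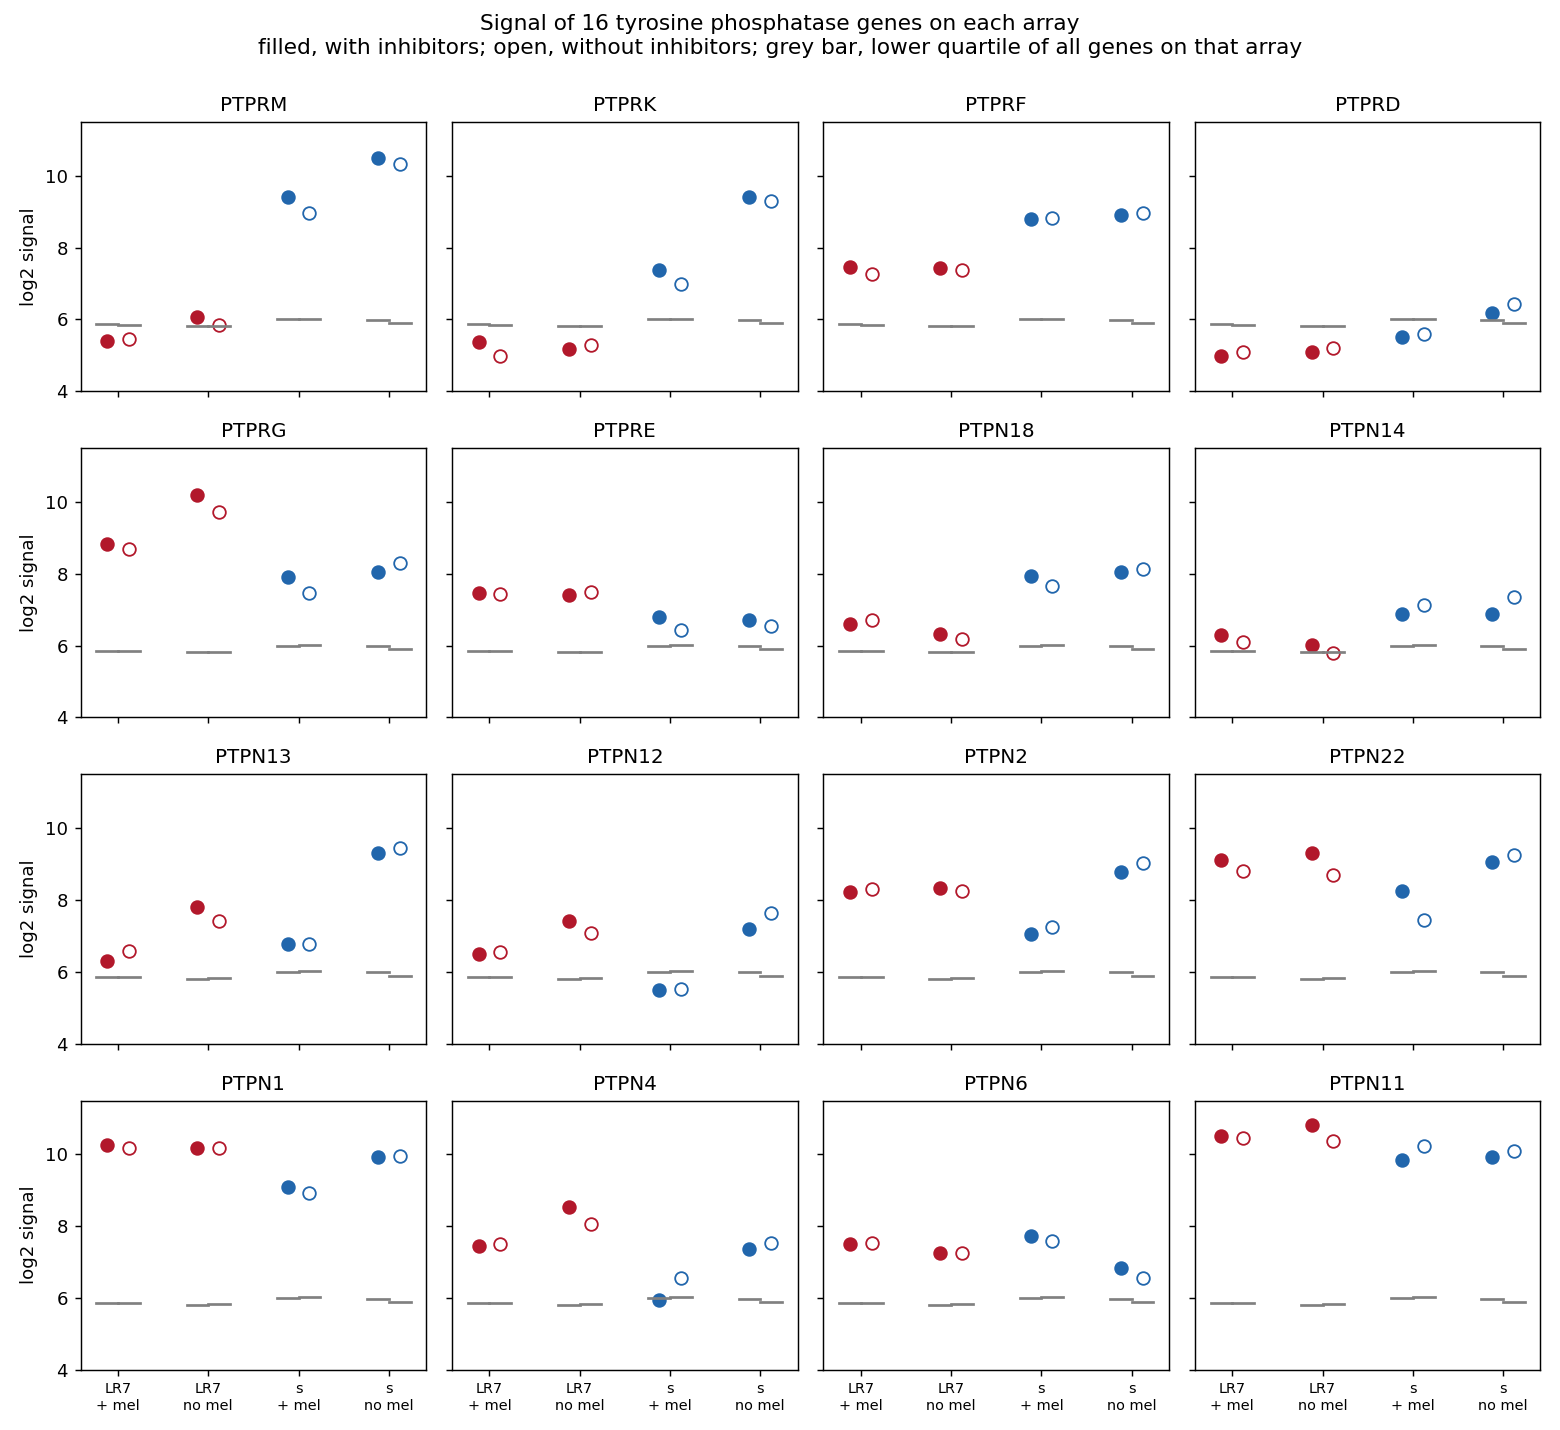
Log2 signal of 16 tyrosine phosphatase genes on each of the 8 arrays, with U266/LR7 in red, U266/s in blue, arrays with inhibitors filled and arrays without inhibitors open. PTPRM lay between 5.40 and 6.05 on the U266/LR7 arrays and between 8.96 and 10.50 on the U266/s arrays, while PTPN2 was low only on the U266/s arrays with melphalan.

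The comparison of the lines without melphalan asks how the resistant derivative differs from its parent before the drug. PTPRM and PTPRK, both adhesion receptors that bind the same receptor on a neighbouring cell, were lower in U266/LR7, PTPRM by 22.1-fold and PTPRK by at least 11.6-fold, since the U266/LR7 signal of PTPRK lay below the lower quartile of genes on each array and was set to that quartile for the bound. PTPRM lay only slightly above that quartile in drug-free U266/LR7. It had 6.05 against 5.81 with inhibitors and 5.83 against 5.82 without, so its fold is also uncertain. PTPRG was 3.45-fold higher. By limma across all genes (adjusted p under 0.05), 7 members were higher and 12 lower in U266/LR7, or 59.4% of the 32. Over all genes 34.7% were called, 16.9% as higher and 17.8% as lower. The median log2 fold change was -0.23 over the members and -0.04 over all genes. Called changes of 2-fold or more made up 25% of the members and 12.7% of all genes. Cell type markers differed between the lines as well. Of the 10 plasma cell markers 4 were higher and 2 lower in U266/LR7 without melphalan, with SLAMF7 at 1.94 and MZB1 at -2.43. Of the 8 stromal and epithelial markers 2 were higher and 2 lower, with PECAM1 at 1.48 and EPCAM, which lay below the lower quartile on 5 arrays, at -2.49. Summed over this list, the log2 signal of drug-free U266/LR7 was 10.65 with and 10.41 without inhibitors, and that of drug-free U266/s was 10.31 with and 10.22 without inhibitors. Of the 6 myeloid markers 1 was called, FCER1G as higher (1.78), while the median log2 fold change of that list was -0.18. Of the 7 T and NK cell markers 1 was called, CD8A as higher (0.48), with a list median of 0.03. Of the 5 B cell markers 1 was lower, with a list median of 0.02. The part of these markers in the line differences was not tested.

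Among the receptors, PTPRM, which binds itself and cadherin complexes at cell contacts, had log2 signals of 6.05 with and 5.83 without inhibitors in U266/LR7, against 10.50 with and 10.31 without inhibitors in U266/s. All U266/LR7 arrays were far below all U266/s arrays, and the log2 fold change was -4.46 ± 0.16 (SE; limma adjusted p = 4.93e-09). PTPRK, its close relative, had 5.18 with and 5.27 without inhibitors in U266/LR7, against 9.41 with and 9.28 without inhibitors in U266/s. Its signal lay below the lower quartile of genes on every U266/LR7 array, and the log2 fold change was -4.12 ± 0.16 (limma adjusted p = 7.58e-09). The third member of this adhesion subfamily, PTPRU, did not share that direction, with a log2 fold change of 0.44 ± 0.15 (limma adjusted p = 0.0343). The PTPRU call was lost without any of 5 of the 8 arrays, with values of 0.47 without the U266/LR7 control, 0.42 without U266/LR7 with inhibitors, 0.28 without the U266/s control, and 0.44 without either U266/LR7 melphalan array.

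The LAR subfamily, receptors that bind heparan sulphate and chondroitin sulphate proteoglycans, was lower in U266/LR7 in all 3 members. PTPRF had log2 signals of 7.44 with and 7.39 without inhibitors in U266/LR7, against 8.92 with and 8.96 without inhibitors in U266/s. PTPRD had 5.08 with and 5.20 without inhibitors in U266/LR7, against 6.17 with and 6.43 without inhibitors in U266/s. The lines did not overlap for either gene, and the log2 fold changes were -1.53 ± 0.14 for PTPRF (limma adjusted p = 7.29e-06) and -1.16 ± 0.13 for PTPRD (limma adjusted p = 2.84e-05). PTPRD was below the lower quartile of genes on all U266/LR7 arrays. PTPRS changed by -0.92 ± 0.14 (limma adjusted p = 2.80e-04).

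PTPRG, whose extracellular carbonic anhydrase-like domain binds contactins, ran the other way. It had log2 signals of 10.21 with and 9.73 without inhibitors in U266/LR7, against 8.06 with and 8.31 without inhibitors in U266/s, with a log2 fold change of 1.79 ± 0.19 (limma adjusted p = 1.74e-05). PTPRE, a receptor with a short extracellular part that acts on SRC family kinases, had 7.42 with and 7.48 without inhibitors in U266/LR7, against 6.72 with and 6.56 without inhibitors in U266/s. For these genes too the lines did not overlap, and the PTPRE log2 fold change was 0.81 ± 0.15 (limma adjusted p = 0.00102). PTPRZ1, a brain-enriched receptor related to PTPRG, was below the lower quartile throughout and changed by -0.44 ± 0.14 (limma adjusted p = 0.0238). That call was lost without the U266/LR7 control at -0.32 (adjusted p = 0.215), without the U266/s control at -0.38 (adjusted p = 0.15) and without U266/s with inhibitors at -0.51 (adjusted p = 0.0596).

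Of the non-receptor genes, PTPN18, a PEST-type phosphatase, had log2 signals of 6.32 with and 6.17 without inhibitors in U266/LR7, against 8.04 with and 8.13 without inhibitors in U266/s. PTPN13, a large PDZ-domain phosphatase that binds the death receptor FAS, had 7.80 with and 7.40 without inhibitors in U266/LR7, against 9.30 with and 9.45 without inhibitors in U266/s. PTPN14, a FERM-domain phosphatase that binds the transcriptional coactivator YAP, had 6.01 with and 5.80 without inhibitors in U266/LR7, against 6.88 with and 7.35 without inhibitors in U266/s. All 3 were lower on both U266/LR7 arrays than on either U266/s array. The log2 fold changes were -1.83 ± 0.15 for PTPN18, -1.77 ± 0.17 for PTPN13 and -1.21 ± 0.18 for PTPN14 (limma adjusted p = 2.65e-06, 9.49e-06 and 2.29e-04).

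Smaller differences were found for the best-known cytokine and growth factor regulators. PTPN2 (TCPTP), which dephosphorylates JAK1 and STAT proteins, had log2 signals of 8.33 with and 8.26 without inhibitors in U266/LR7, against 8.79 with and 9.02 without inhibitors in U266/s. PTPN6 (SHP1), an inhibitory phosphatase of blood cells, had 7.27 with and 7.26 without inhibitors in U266/LR7, against 6.83 with and 6.57 without inhibitors in U266/s. PTPN2 was thus lower and PTPN6 higher in U266/LR7, with log2 fold changes of -0.61 ± 0.14 and 0.57 ± 0.14 (limma adjusted p = 0.00606 and 0.00834). PTPN11 (SHP2), which promotes RAS signalling, had 10.83 with and 10.37 without inhibitors in U266/LR7, against 9.94 with and 10.09 without inhibitors in U266/s, a log2 fold change of 0.58 ± 0.18 (limma adjusted p = 0.0268). PTPN4, a FERM and PDZ-domain phosphatase, had 8.52 with and 8.06 without inhibitors in U266/LR7, against 7.36 with and 7.52 without inhibitors in U266/s, a log2 fold change of 0.85 ± 0.21 (limma adjusted p = 0.0074). The drug-free arrays of the lines did not overlap for any of these 4 genes. That is read from the same values as the calls and is not separate support for them.

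These smaller calls were lost without some single arrays. Leaving out an array also leaves fewer arrays for the estimate of the spread, so a lost call does not show that this array carried the difference. Without the U266/s control array, PTPN2 stood at -0.52 (adjusted p = 0.0737), PTPN6 at 0.44 (adjusted p = 0.0996) and PTPN11 at 0.68 (adjusted p = 0.0819). Without the U266/LR7 array with inhibitors, PTPN11 stood at 0.27 (adjusted p = 0.273) and PTPN4 at 0.48 (adjusted p = 0.0982). Without the U266/s array with inhibitors, they stood at 0.49 (adjusted p = 0.217) for PTPN11 and 0.80 (adjusted p = 0.0735) for PTPN4. Of the remaining called members, PTPN7 (-0.70), a blood-cell phosphatase acting on MAP kinases, kept its call without every single array. PTPN21 (-0.71), related to PTPN14, was lost without either control array, at -0.49 (adjusted p = 0.138) without that of U266/LR7 and -0.61 (adjusted p = 0.11) without that of U266/s. PTPN20 (0.73) was lost without either inhibitor array, at 0.47 (adjusted p = 0.0601) without that of U266/LR7 and 0.61 (adjusted p = 0.051) without that of U266/s.

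**Figure D2:**
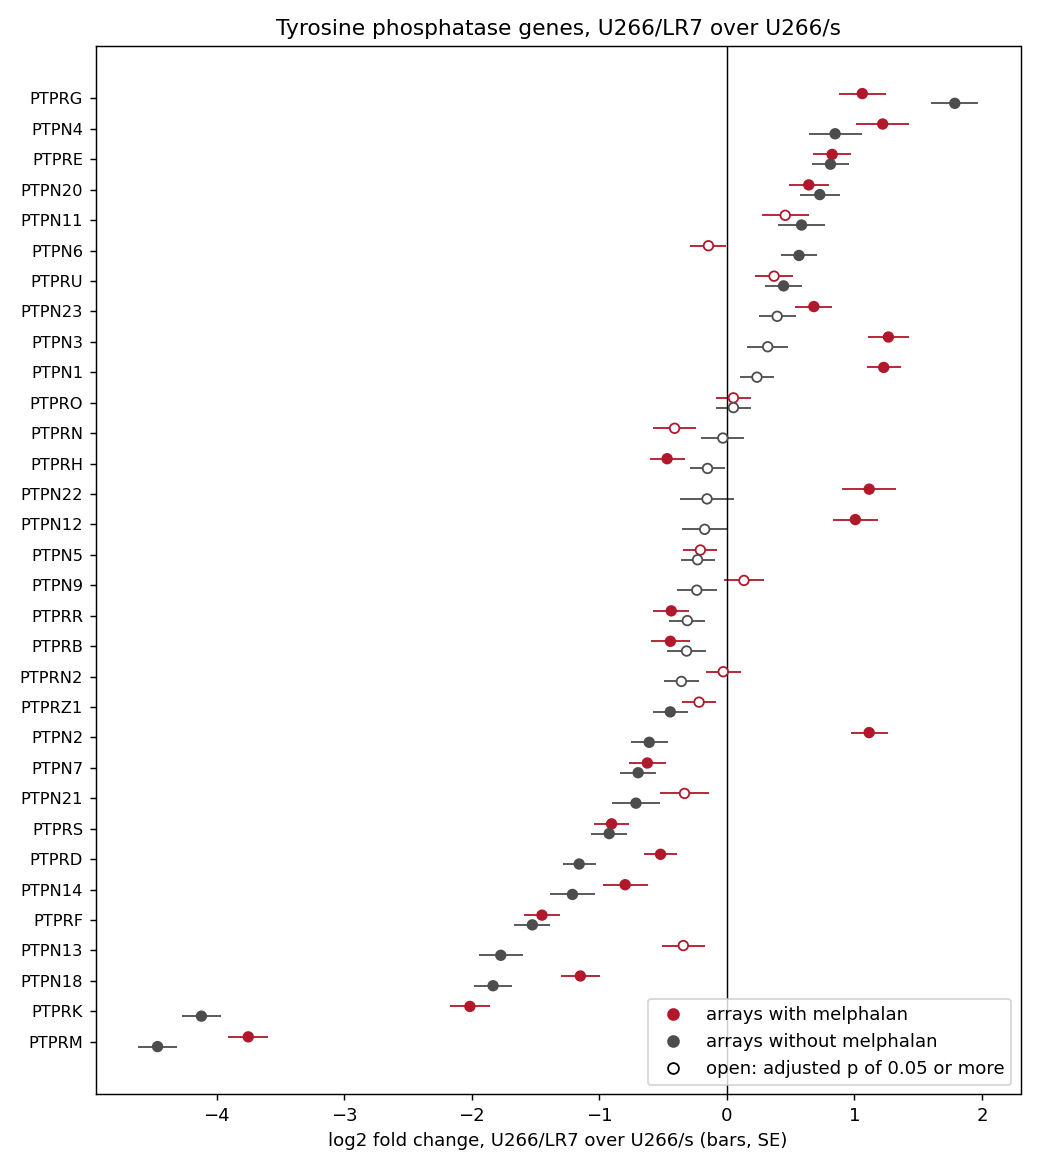
Log2 fold change of all 32 members, U266/LR7 over U266/s, on arrays with melphalan (red) and without melphalan (grey), with SE bars and open points for an adjusted p of 0.05 or more. PTPRM (-3.75 with and -4.46 without melphalan) and PTPRK (-2.02 with and -4.12 without) lie farthest to the left, and PTPN2 changes side, with 1.11 with and -0.61 without melphalan.

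With melphalan, 10 members were higher and 11 lower in U266/LR7 than in U266/s by limma, or 65.6% of the 32. Over all genes 51.7% were called, 27.7% as higher and 24.0% as lower. Among the non-receptor genes 8 were higher and 3 lower, and among the receptors 2 were higher and 8 lower. The median log2 fold change was -0.18 over the members and -0.08 over all genes. Quantile normalization gave 10 members higher and 7 lower, a share of 58.8% higher against 47.6% in the deposited scaling. Cyclic loess gave the same counts. The members called were not all the same. In both settings the receptors PTPRB, PTPRD, PTPRH and PTPRR lost their calls as lower, and PTPN23 its call as higher. The receptor PTPRU gained a call as higher, at 0.44 after quantile normalization (limma adjusted p = 0.0226) and 0.56 after cyclic loess (limma adjusted p = 0.00784). The split among the receptors thus depended on the scaling. Over all genes 8793 were called after quantile normalization and 8115 after cyclic loess, against 9529 in the deposited scaling.

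The large receptor differences were also present with melphalan. PTPRM had log2 signals of 5.40 with and 5.46 without inhibitors in U266/LR7, against 9.41 with and 8.96 without inhibitors in U266/s, a log2 fold change of -3.75 ± 0.16 (limma adjusted p = 3.61e-08). PTPRK had 5.37 with and 4.97 without inhibitors in U266/LR7, against 7.38 with and 6.99 without inhibitors in U266/s, a log2 fold change of -2.02 ± 0.16 (limma adjusted p = 2.09e-06). Both genes lay below the lower quartile of genes on the U266/LR7 melphalan arrays, so that the linear folds are bounds, at least 10.1-fold lower for PTPRM and at least 2.51-fold lower for PTPRK. No U266/LR7 array reached any U266/s array. PTPRF had 7.46 with and 7.26 without inhibitors in U266/LR7, against 8.79 with and 8.82 without inhibitors in U266/s, a log2 fold change of -1.45 ± 0.14 (limma adjusted p = 9.74e-06). PTPRE had 7.46 with and 7.43 without inhibitors in U266/LR7, against 6.80 with and 6.44 without inhibitors in U266/s, a log2 fold change of 0.82 ± 0.15 (limma adjusted p = 6.94e-04). For these 2 receptors the test of the difference between the melphalan states gave adjusted p = 0.821 for PTPRF and 0.972 for PTPRE in limma, with differences of 0.08 ± 0.20 and 0.01 ± 0.21. PTPRG stayed higher in U266/LR7 with a log2 fold change of 1.06 ± 0.19 (limma adjusted p = 6.23e-04).

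PTPN18 had log2 signals of 6.59 with and 6.71 without inhibitors in U266/LR7 with melphalan, against 7.95 with and 7.65 without inhibitors in U266/s with melphalan. PTPN14 had 6.29 with and 6.10 without inhibitors in U266/LR7, against 6.87 with and 7.12 without inhibitors in U266/s. Both remained lower in U266/LR7 without overlap, with log2 fold changes of -1.15 ± 0.15 and -0.80 ± 0.18 (limma adjusted p = 7.63e-05 and 0.00304). PTPRD had 4.98 with and 5.08 without inhibitors in U266/LR7, against 5.52 with and 5.58 without inhibitors in U266/s, a log2 fold change of -0.52 ± 0.13 (limma adjusted p = 0.00573), with all of these PTPRD signals below the lower quartile. Leaving out the U266/LR7 melphalan array ended the calls of PTPN14, at -0.62 (adjusted p = 0.0586), and of PTPRD, at -0.50 (adjusted p = 0.0659). PTPRD also lost its call after quantile normalization (-0.32, adjusted p = 0.0646) and after cyclic loess (-0.30, adjusted p = 0.0856).

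Another set of members separated the lines with melphalan. PTPN1 (1.23), PTPN2 (1.11), PTPN3 (1.27), PTPN12 (1.01) and PTPN22 (1.12) were all higher in U266/LR7 with melphalan. Without melphalan PTPN2 was called as lower there, and the other 4 were not called (log2 fold changes of -0.17 for PTPN12 to 0.32 for PTPN3). The line difference was called in both melphalan states for 13 members, with the same sign for 12 and the opposite sign for PTPN2. It was called only without melphalan for 6 members, only with melphalan for 8, and in neither state for 5. A difference between the states was tested by the interaction given below for melphalan. PTPN13 (-0.34, limma adjusted p = 0.115), PTPN11 (0.46, limma adjusted p = 0.0551) and PTPN6 (-0.14, limma adjusted p = 0.408) were not called with melphalan. At the same 0.46, PTPN11 was called with all two-way interactions (limma adjusted p = 0.024) and with transfection as 3 levels (limma adjusted p = 0.0363). It was also called among genes above the median signal (limma adjusted p = 0.0416). The PTPN11 interaction, -0.13 ± 0.26, was not called (limma adjusted p = 0.759).

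Further members called as lower in U266/LR7 with melphalan had low signal. PTPRB, an endothelial receptor, PTPRH and PTPRR, a receptor-type phosphatase of MAP kinases, had log2 fold changes of -0.44, -0.47 and -0.44. PTPN20, at 0.64, was called as higher. Without the U266/LR7 melphalan array all 4 calls were lost, with PTPRB at -0.52 (adjusted p = 0.0844), PTPRH at -0.47 (adjusted p = 0.0975), PTPRR at -0.33 (adjusted p = 0.23) and PTPN20 at 0.61 (adjusted p = 0.05005). Without the U266/s melphalan array PTPRB stood at -0.47 (adjusted p = 0.0904), PTPRH at -0.35 (adjusted p = 0.138) and PTPRR at -0.28 (adjusted p = 0.218). Without the combined-treatment array of U266/LR7 these 3 stood at -0.37 (adjusted p = 0.209), -0.47 (adjusted p = 0.0959) and -0.54 (adjusted p = 0.0528) in the order PTPRB, PTPRH, PTPRR. Without that of U266/s, PTPRB stood at -0.42 (adjusted p = 0.118) and PTPN20 at 0.53 (adjusted p = 0.0539). PTPRB, PTPRH and PTPRR were also lost after quantile normalization or cyclic loess. PTPN7, at -0.62, lost its call only without the combined-treatment array of U266/LR7, at -0.49 (adjusted p = 0.089). PTPN23, an endosomal sorting protein, was higher at 0.68, and kept its call without every single array but not after quantile normalization (0.35, adjusted p = 0.0763). The called total for the 32 members was between 15 and 23 when single arrays were left out. PTPN5, PTPRN, PTPRN2 and PTPRO, 4 members mainly known from brain, endocrine or kidney cells, were called in no comparison of lines or treatments.

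Melphalan in U266/s lowered 11 members and raised 2 by limma, or 40.6% of the 32. Over all genes 43.4% were called, 18.4% as higher and 24.9% as lower. The falls were largest for PTPN13, PTPRK, PTPN12 and PTPN2, at 6.06-fold, 4.48-fold, at least 2.65-fold (PTPN12, below the lower quartile on both melphalan arrays) and 3.38-fold, and the rises were PTPN6 (1.95-fold) and PTPRH (1.54-fold). The median log2 fold change was -0.13 over the members and 0.08 over all genes. The U266/s melphalan arrays also had the narrowest signal ranges, at 3.25 and 3.34. After quantile normalization, which gives every array the same range, 3 members were higher and 13 lower. Over all genes 8204 were called in that setting, against 7984 in the deposited scaling.

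PTPN13 had log2 signals of 6.77 with and 6.78 without inhibitors in U266/s under melphalan, against 9.30 with and 9.45 without inhibitors in drug-free U266/s. PTPN12 (PTP-PEST), which acts on focal adhesion proteins, had 5.50 with and 5.52 without inhibitors under melphalan, against 7.18 with and 7.64 without inhibitors in drug-free cells. PTPN2 had 7.05 with and 7.23 without inhibitors under melphalan, against 8.79 with and 9.02 without inhibitors in drug-free cells. In each case both melphalan arrays were lower than both arrays without the drug, and PTPN12 went below the lower quartile of genes. The log2 fold changes were -2.60 ± 0.17 for PTPN13, -1.90 ± 0.17 for PTPN12 and -1.76 ± 0.14 for PTPN2 (limma adjusted p = 2.63e-06, 1.24e-05 and 6.98e-06).

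PTPN22, a lymphocyte phosphatase that works with the kinase CSK, had log2 signals of 8.26 with and 7.43 without inhibitors in U266/s under melphalan, against 9.06 with and 9.26 without inhibitors in drug-free U266/s. PTPN1 (PTP1B), an endoplasmic reticulum phosphatase of the insulin receptor and JAK2, had 9.08 with and 8.91 without inhibitors under melphalan, against 9.94 with and 9.96 without inhibitors in drug-free cells. PTPN4 had 5.96 with and 6.56 without inhibitors under melphalan, against 7.36 with and 7.52 without inhibitors in drug-free cells. These 3 fell without overlap of the arrays, by log2 fold changes of -1.32 ± 0.21 for PTPN22, -0.95 ± 0.13 for PTPN1 and -1.18 ± 0.21 for PTPN4 (limma adjusted p = 4.65e-04, 1.88e-04 and 8.53e-04). PTPN3 (-1.17), related to PTPN4, and PTPN9 (-0.82), a phosphatase of secretory vesicles, fell as well.

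Of the receptors, PTPRK had 7.38 with and 6.99 without inhibitors in U266/s under melphalan, against 9.41 with and 9.28 without inhibitors in drug-free U266/s. PTPRM had 9.41 with and 8.96 without inhibitors under melphalan, against 10.50 with and 10.31 without inhibitors in drug-free cells. Both fell, with log2 fold changes of -2.16 ± 0.16 and -1.22 ± 0.16 (limma adjusted p = 3.82e-06 and 9.3e-05), and stayed above every U266/LR7 array. PTPRD fell by 0.75 on the log2 scale. PTPRG, at -0.49 ± 0.19, was not called (limma adjusted p = 0.0508), and PTPRF and PTPRE had -0.13 and -0.02.

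PTPN6 had log2 signals of 7.72 with and 7.60 without inhibitors in U266/s under melphalan, against 6.83 with and 6.57 without inhibitors in drug-free U266/s. Both melphalan arrays were higher, and the log2 fold change was 0.96 ± 0.14 (limma adjusted p = 2.60e-04). PTPRH, at 0.62 ± 0.14 (limma adjusted p = 0.00377), lost its call without the U266/s control array at 0.49 (adjusted p = 0.0585) and without the U266/s melphalan array at 0.50 (adjusted p = 0.0514). Cell type markers moved alongside. Of the 10 plasma cell markers 1 was higher and 5 lower with melphalan in U266/s, with SDC1 at 1.09 and PRDM1 at -1.14, and 0 were higher and 2 lower in U266/LR7. Of the myeloid markers 3 of 6 were higher with melphalan in U266/s, FCER1G at 1.88 and CD14 at 1.47 among them, with a log2 summed signal of 9.69 and 9.55 on melphalan arrays, against 8.68 and 8.48 without melphalan. In U266/LR7 1 of 6 was higher, with summed signals of 9.47 and 9.12 on melphalan arrays, against 9.04 and 8.82 without melphalan. Of the B cell markers 2 of 5 were higher, with 9.65 on each melphalan array, against 9.04 and 9.09 without melphalan, and of the T and NK cell markers 2 of 7. CD79A had 0.84 and CD8A 0.53. The epithelial marker EPCAM had -1.77. Marker levels were mixed within each list. LYZ, MS4A1, CD22, CD3D, CD2 and CD4 were below the lower quartile on all 8 arrays, GNLY on 7, CD3E on 4, MPO on 3 and FCER1G on 1, while CD14, CSF1R, ITGAM, PAX5, CD79A, BLK, CD8A and NKG7 were above it on all 8. The part of these markers in the PTPN6 value and in the other responses was not tested.

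In U266/LR7 melphalan lowered 4 members and raised 0 by limma, or 12.5% of the 32. Over all genes 6.62% were called, 3.02% as higher and 3.61% as lower. The median log2 fold change was 0.01 over the members and 0.05 over all genes. PTPRG had log2 signals of 8.81 with and 8.69 without inhibitors in U266/LR7 under melphalan, against 10.21 with and 9.73 without inhibitors in drug-free U266/LR7. PTPN13 had 6.30 with and 6.57 without inhibitors under melphalan, against 7.80 with and 7.40 without inhibitors in drug-free cells. These were the largest falls, at -1.22 ± 0.19 and -1.17 ± 0.17 on the log2 scale (limma adjusted p = 0.00334 and 0.00269), and the arrays did not overlap.

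PTPN4 had log2 signals of 7.46 with and 7.50 without inhibitors in U266/LR7 under melphalan, against 8.52 with and 8.06 without inhibitors in drug-free U266/LR7. PTPN12 had 6.49 with and 6.54 without inhibitors under melphalan, against 7.40 with and 7.07 without inhibitors in drug-free cells. The log2 fold changes were -0.81 ± 0.21 and -0.72 ± 0.17 (limma adjusted p = 0.0423 and 0.0337). Both calls were lost without some single arrays. Leaving out an array also leaves fewer arrays for the estimate of the spread, and in several of these cases the log2 fold change moved little. Without the U266/LR7 array with inhibitors, PTPN4 stood at -0.44 (adjusted p = 0.257) and PTPN12 at -0.47 (adjusted p = 0.206). Without the U266/LR7 melphalan array they stood at -0.78 (adjusted p = 0.25) for PTPN4 and -0.72 (adjusted p = 0.211) for PTPN12, and without the combined-treatment array at -0.84 (adjusted p = 0.204) for PTPN4 and -0.72 (adjusted p = 0.213) for PTPN12. PTPN13 lost its call in this last case, at -0.99 (adjusted p = 0.0607), which left PTPRG as the 1 member called. The member count was 2 in each case when the melphalan or the inhibitor array of U266/LR7 was absent. PTPN4 was also lost without the U266/s control array, at -0.81 (adjusted p = 0.0729), and without the U266/s array with inhibitors, at -0.81 (adjusted p = 0.0728).

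Several genes that changed in U266/s had small, uncalled differences in U266/LR7. PTPN2 had 8.22 with and 8.29 without inhibitors in U266/LR7 under melphalan, against 8.33 with and 8.26 without inhibitors in drug-free U266/LR7. PTPN1 had 10.27 with and 10.18 without inhibitors under melphalan, against 10.17 with and 10.19 without inhibitors in drug-free cells. PTPN22 had 9.11 with and 8.81 without inhibitors under melphalan, against 9.31 with and 8.70 without inhibitors in drug-free cells. Melphalan and drug-free arrays overlapped for all 3, with log2 fold changes of -0.03 ± 0.14, 0.04 ± 0.13 and -0.05 ± 0.21, none of them called. PTPN6 had 7.49 with and 7.54 without inhibitors under melphalan, against 7.27 with and 7.26 without inhibitors in drug-free cells, a log2 fold change of 0.25 ± 0.14 that did not pass (limma adjusted p = 0.38). PTPN11 had 10.52 with and 10.47 without inhibitors under melphalan, against 10.83 with and 10.37 without inhibitors in drug-free cells of this line. In U266/s it had 9.83 with and 10.24 without inhibitors under melphalan, against 9.94 with and 10.09 without inhibitors in drug-free cells. Neither PTPN11 response was called, with log2 fold changes of -0.10 ± 0.18 in U266/LR7 and 0.02 ± 0.18 in U266/s.

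**Figure D3:**
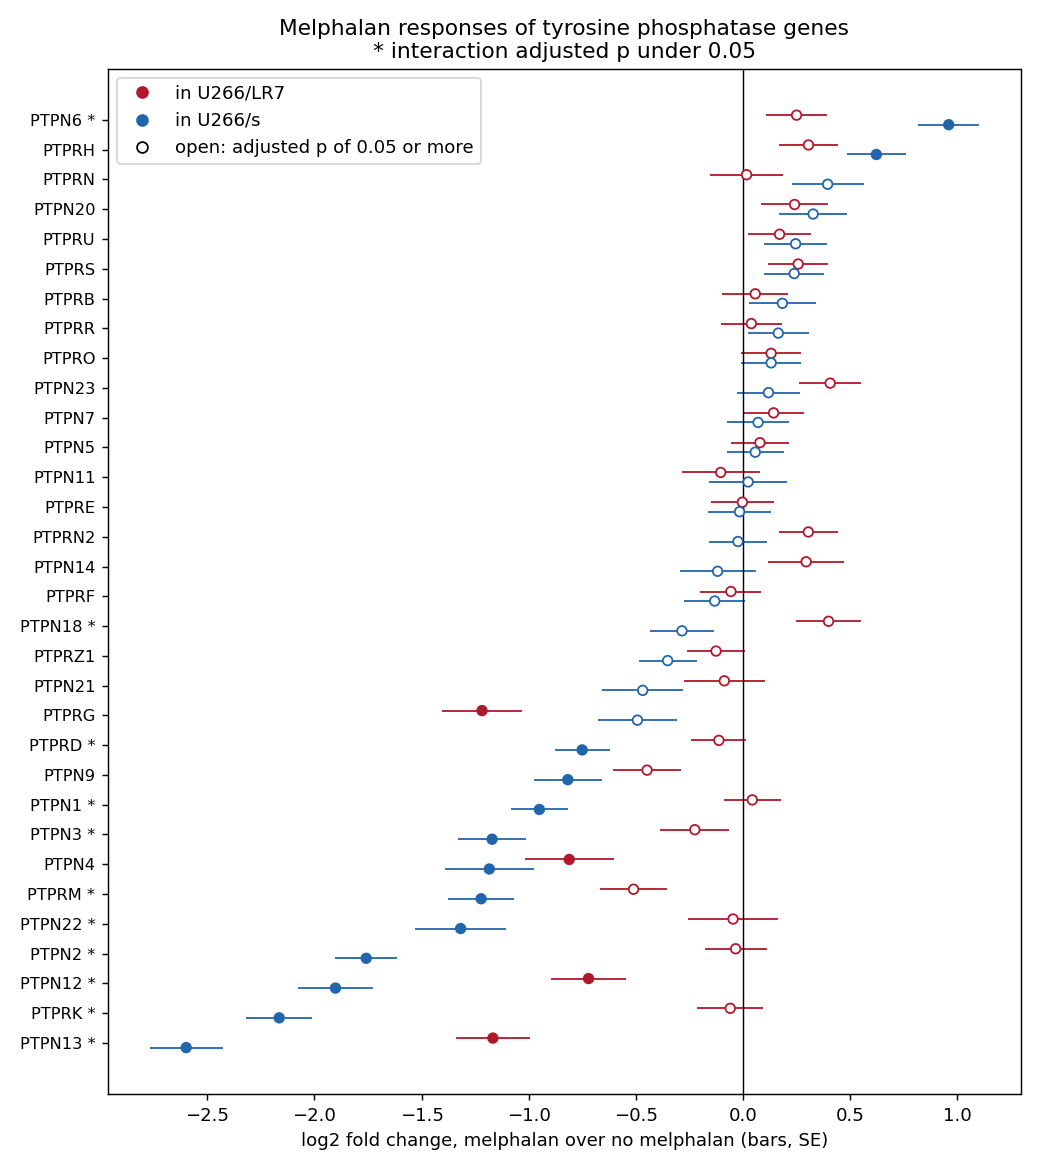
Log2 fold change of all 32 members, melphalan over no melphalan, in U266/LR7 (red) and U266/s (blue), with SE bars, open points for an adjusted p of 0.05 or more and asterisks for a called interaction. PTPN2 sits at -0.03 in U266/LR7 and -1.76 in U266/s, and PTPRG has the lowest U266/LR7 value, -1.22, against -0.49 in U266/s.

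Whether the lines differed in their melphalan response was tested with the interaction, the U266/LR7 response minus the U266/s response. By limma 10 members had a positive interaction and 1 a negative one, or 34.4% of the 32. Over all genes 23.9% were called, 17.9% as positive and 5.99% as negative. PTPRK (2.10 ± 0.22), PTPN2 (1.72 ± 0.20), PTPN13 (1.43 ± 0.24), PTPN22 (1.27 ± 0.30) and PTPN12 (1.18 ± 0.25) had the largest values, followed by PTPN1 at 0.99 ± 0.19 (limma adjusted p = 1.52e-04, 2.68e-04, 0.00155, 0.00972, 0.00519 and 0.00307). Each of these fell in U266/s and had a smaller log2 response in U266/LR7. PTPRK and PTPRD were below the lower quartile of genes on all U266/LR7 arrays and PTPRM on those with melphalan, so that a fall of these genes in U266/LR7 could be measured poorly or not at all and their interaction values rest on the fall in U266/s. Of the members outside this limit PTPN2 had the largest value. PTPN6 was the negative member at -0.71 ± 0.20 (limma adjusted p = 0.0242). PTPRG, at -0.73 ± 0.26, was not called (limma adjusted p = 0.068). After cyclic loess PTPRG stood at -1.004 (adjusted p = 0.0211), which made the split 9 positive and 2 negative (81.8% positive, against 90.9% as deposited). Quantile normalization gave 8 and 2 (80.0%), and median centring 7 and 2 (77.8%). Over all genes 3900 were called after cyclic loess, 4444 after quantile normalization and 4508 after median centring, against 4394 as deposited.

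The interaction calls of PTPRK, PTPN2, PTPN13, PTPN12 and PTPN1 held without every single array. PTPN22 stood at 0.89 (adjusted p = 0.0667) without the U266/s control array and 0.98 (adjusted p = 0.0565) without the U266/s melphalan array. PTPN3 stood at 0.92 (adjusted p = 0.0611) without the U266/LR7 melphalan array and 0.78 (adjusted p = 0.0812) without the U266/s control array. PTPN18 (0.68) and PTPRD (0.64) were lost without the control or melphalan array of either line and without the combined-treatment array of U266/LR7. Their values were 0.57 and 0.66 without the U266/LR7 melphalan array, and 0.58 and 0.56 without the U266/s control array. PTPRM (0.71) was lost without the control or melphalan array of either line and without the U266/s array with inhibitors, at 0.54 without the U266/LR7 melphalan array. Over all 8 arrays left out in turn, the values lay between 0.52 and 0.84 for PTPN18, 0.56 and 0.72 for PTPRD, 0.54 and 0.89 for PTPRM and -0.83 and -0.59 for PTPN6. PTPN6 was lost without any array except the inhibitor-only arrays, at -0.59 without the U266/s control. The member count was 6 in each case when the U266/LR7 melphalan, the U266/s control or the U266/s melphalan array was absent.

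The responses of the lines, which share no array, had the same sign for 12 of the 13 members called in U266/s (PTPN1 was the exception), and the sizes of all 13 were smaller in U266/LR7. Some of these signs are uncertain, because the U266/LR7 response was smaller than its SE. This held for PTPN2 (-0.03 ± 0.14), PTPN22 (-0.05 ± 0.21), PTPRK (-0.06 ± 0.16), PTPRD (-0.11 ± 0.13) and PTPN1 (0.04 ± 0.13). PTPRK and PTPRD also lay below the lower quartile of genes on all U266/LR7 arrays. Over all 7984 genes called in U266/s, 63.0% had the same sign in U266/LR7 and 94.7% were smaller there. The 13 members and these genes were selected by their U266/s call, which favours larger sizes in U266/s. Only PTPN13, PTPN12 and PTPN4 were called in both lines. Across the 32 members, the log2 responses of the lines correlated at a Pearson r of 0.646 and a Spearman rho of 0.702, against r = 0.289 over all genes. Genes are not independent replicates, so these values describe the arrays only.

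Members that fell under melphalan had a longer median genomic span than the other members, and so had all genes that fell. In U266/s, the median genomic span (RefSeq GRCh38.p14) was 162.7 kb for the 11 members that fell, 21.5 kb for the 2 that rose and 101.6 kb for the 19 not called. Over 16900 protein-coding genes the medians were 57.8 kb for falls, 11.9 kb for rises and 22.9 kb for genes not called. The log2 response and the span had a Spearman rho of -0.397 across the members and -0.41 across all these genes. In U266/LR7 the medians were 222.9 kb for the 4 members that fell and 100.2 kb for those not called, with rho of -0.46. Over all genes of U266/LR7 the medians were 219.3 kb for falls, 13.9 kb for rises and 26.5 kb for genes not called, with rho of -0.336. PTPRG spans 736 kb, PTPRM 839.5 kb, PTPRK 551.8 kb and PTPN13 220.8 kb, whereas PTPN6, which rose in U266/s, spans 14.7 kb. PTPRD spans 2298.8 kb and had -0.11 in U266/LR7 and -0.75 in U266/s. The part of gene length in the responses was not tested.

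The inhibitors of miR-221 and miR-222 were compared over both lines, with 4 arrays with inhibitors against 4 without. By limma 0 of 32 members were called, and over all genes 0.0434% were called, which is 8 genes (0.0271% higher and 0.0163% lower). At an unadjusted p under 0.05 there was 1 member, against 1161 genes or 6.3% of all. PTPN22, the member with that value, had a log2 fold change of 0.38 ± 0.15 (limma unadjusted p = 0.0267, adjusted p = 0.72). Its inhibitor-minus-control differences were 0.30 in U266/LR7 with melphalan, 0.60 in U266/LR7 without it, 0.82 in U266/s with melphalan and -0.20 in U266/s without it. Of these 4 pairs 3 were positive and 1 negative. All other members lay between -0.14 (PTPRD) and 0.21 (PTPRK and PTPRG). In simulated arrays of this design with 200 of 18417 genes shifted by 1 log2 unit, 100% of the shifted genes were detected. With fewer changed genes the adjusted threshold is stricter. The simulation therefore does not show that a member shifted by this much would have been called here. Smaller changes were not simulated.

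**Figure D4:**
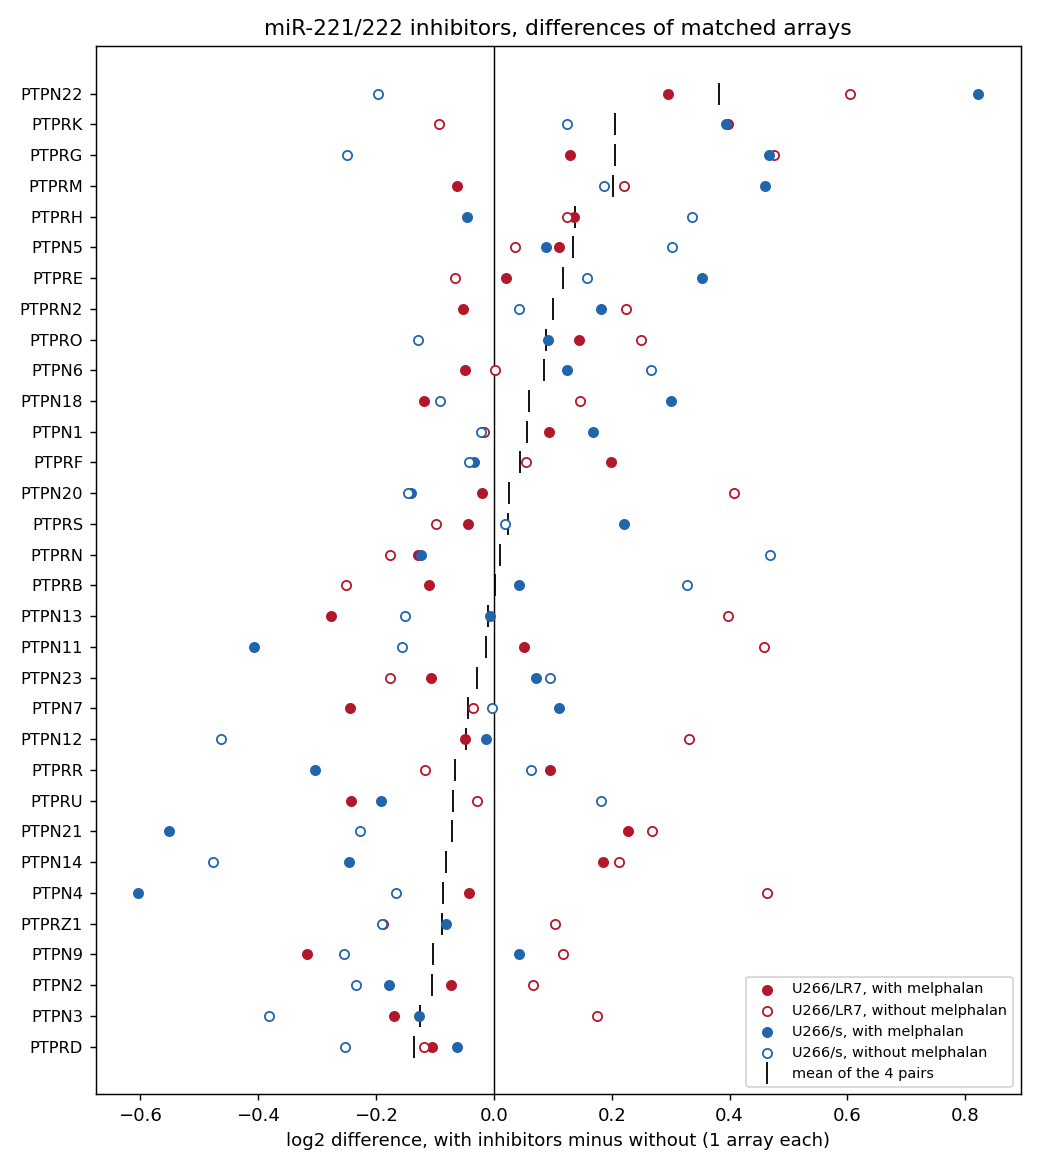
Log2 difference of each member between arrays with and without inhibitors, 1 point for each of the 4 matched pairs, with a vertical bar for their mean. The points of most members fall on both sides of 0, and PTPN22 has the highest mean, 0.38.

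Genes that act with these phosphatases were counted in lists that were chosen with earlier results of these data known. The counts are descriptions to be read against all genes, of which 34.7% were called between the lines without melphalan (16.9% higher, 17.8% lower), 43.4% for melphalan in U266/s (18.4% higher, 24.9% lower) and 6.62% for melphalan in U266/LR7 (3.02% higher, 3.61% lower). The median log2 fold changes of all genes were -0.04 for the lines, 0.08 for melphalan in U266/s and 0.05 in U266/LR7. Among 35 measured ligands and partners of receptor phosphatases, 4 were higher and 13 lower in U266/LR7 without melphalan. GPC6, a heparan sulphate glypican of the kind LAR receptors bind, had -4.21 (limma adjusted p = 8.17e-08), and CNTN1, a contactin that binds PTPRZ1, had -3.82 (limma adjusted p = 3.03e-06). In drug-free U266/LR7, GPC6 had 5.56 with and 5.41 without inhibitors, and CNTN1 had 4.09 with and 4.96 without. These signals lay below the lower quartile of genes, so the sizes of both differences are uncertain. Melphalan in U266/s raised 5 and lowered 11 of the ligands and partners, with CNTN1 at -2.50. CNTN1 lay below the lower quartile of genes on the U266/s array with melphalan alone (5.30). In U266/LR7 melphalan lowered 1, CTNNA1, an adherens junction protein, at -0.77. The list medians were -0.14 for the lines without melphalan, 0.06 for melphalan in U266/LR7 and 0.04 for melphalan in U266/s. Among the 8 genes called for the inhibitors was CNTN6, a contactin that binds PTPRG. It had 9.96 with inhibitors and 9.07 without in U266/LR7 with melphalan, and 10.64 with inhibitors and 9.21 without in U266/LR7 without melphalan. In U266/s it had 8.998 with inhibitors and 7.784 without under melphalan, and 7.90 with inhibitors and 7.25 without in drug-free cells. CNTN6 had a log2 fold change of 1.05 ± 0.13 (SE, limma adjusted p = 0.0282), which is the mean of these 4 pair differences. It was named because of this call, so the higher value in 4 of 4 pairs is not separate support. The number of genes called for inhibitors ranged between 0 and 11 when single arrays were left out.

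Among 31 receptor tyrosine kinases, the substrates and counterparts of the phosphatases, 7 were higher and 9 lower in U266/LR7 without melphalan. FGFR3, a growth factor receptor, had -5.84 (limma adjusted p = 1.36e-09). Melphalan raised 1 and lowered 5 in U266/LR7, with IGF1R at -1.08, and raised 3 and lowered 6 in U266/s, with ROR1 at -1.53. The kinase medians were -0.16 for the lines without melphalan, 0.07 for melphalan in U266/LR7 and 0.10 for melphalan in U266/s. Of 11 SRC family kinases and regulators, 1 was higher and 5 lower in U266/LR7 without melphalan, among them CSK, the kinase that restrains SRC kinases, at -0.93. Melphalan lowered FYN in U266/LR7 (-1.24) and raised none there. In U266/s it raised 1 and lowered 4, with LYN, the main SRC kinase of B cells, at -2.20 and YES1 at -1.81. The medians of this list were -0.27 for the lines without melphalan, -0.11 for melphalan in U266/LR7 and 0.18 for melphalan in U266/s.

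Of 9 JAK and STAT genes, 2 were higher and 3 lower in U266/LR7 without melphalan. STAT6, which carries interleukin 4 signals, had -3.03 (limma adjusted p = 3.76e-08), and STAT4 had 1.69 (limma adjusted p = 1.70e-04). Melphalan called none of them in U266/LR7 and in U266/s raised 1 and lowered 5, with JAK1 at -1.11 and JAK2 at -1.05. The JAK and STAT medians were -0.18 for the lines without melphalan, -0.12 for melphalan in U266/LR7 and -0.42 for melphalan in U266/s. Of 19 adaptors and inhibitory receptors that recruit SHP1 or SHP2, 5 were higher and 3 lower in U266/LR7 without melphalan, with the inhibitory receptor LAIR1 at -1.81 and the RAS activator SOS2 at 1.65. Melphalan raised 2 and lowered 1 in U266/LR7, where the SHP2-binding adaptor GAB2 had -1.08. It raised 1 and lowered 5 in U266/s, where SOS1 had -2.10. The adaptor and receptor medians were 0.02 for the lines without melphalan, 0.02 for melphalan in U266/LR7 and 0.01 for melphalan in U266/s. Of 18 other phosphatases acting on phosphotyrosine or of the cysteine-based class, 1 was higher and 6 lower in U266/LR7 without melphalan. EYA1, a phosphatase that is also a transcriptional coactivator, had -5.24, and PTPRC (CD45), the abundant receptor phosphatase of white blood cells, had -2.79 (limma adjusted p = 3e-09 and 2.12e-07). In drug-free U266/LR7, EYA1 lay below the lower quartile of genes, at 5.34 with and 5.63 without inhibitors. PTPRC lay below it in the control (5.70). The sizes of both differences are thus uncertain. Melphalan raised 1 and lowered 2 of this list in U266/LR7, with EYA2, a relative of EYA1, at -0.999. In U266/s it raised 2 and lowered 6, with CDC25C, an activator of mitotic entry, at -1.03. The medians of these phosphatases were -0.16 for the lines without melphalan, 0.08 for melphalan in U266/LR7 and -0.21 for melphalan in U266/s.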

How the data were processed

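RNA levels of 8 samples were read on 1-colour Affymetrix arrays. The authors deposited log2 signals; Affymetrix Expression Console and RMA are the tools named, per the submitters' processing notes. No version, setting or genome build was found in the sources used here. The deposited table held 33297 transcript clusters and 0 columns of no sample. The platform annotation gave 1 symbol to 19460 clusters, several to 1754 and none to 12083, and 19429 of the first matched a RefSeq gene by gene ID. Genes with more than 1 cluster (769) took the cluster with the highest mean, giving 18417 genes. PTPRA was left out because its cluster carries more than 1 symbol.

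The model held line, melphalan, their interaction and the inhibitors, and was fitted with limma 3.58.1 (R 4.3.3; Python 3.11.15 for tables) to all 8 arrays, with empirical Bayes variances, an intensity trend and 3 residual degrees of freedom. The median residual SD was 0.139 log2 units. A gene was called at a Benjamini-Hochberg adjusted p under 0.05 over all genes. Where a gene lay below the lower quartile of genes on all arrays of its lower group, the linear fold was computed with those arrays at the quartile and given as a lower bound. No condition was replicated, and the labels do not name separate cultures. The residual spread is the variation of the inhibitor difference between the line and melphalan states. Arrays with and without inhibitors thus stood in for replicates. The SE and p-values cover only this spread among these arrays. It mixes any inhibitor effect that differs between the states with other differences of the arrays, possibly technical. It is not a spread between replicates. Precision is limited by the number of arrays. On simulated data with 18417 genes, 200 of them changed by 1 log2 unit, 98.5% were recovered for the line difference, 100% for melphalan in U266/s, 76.5% for the interaction and 100% for the inhibitors.

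Members and gene lists were chosen with earlier results of these data known. Genes given by array were the 8 largest called line differences without melphalan, the 6 largest called responses to melphalan in U266/s, at most 5 in U266/LR7, the 5 largest interactions, at most 3 for inhibitors and a set of well-known members, 16 genes in all. Of each further list, at most 2 called genes with the largest fold in a comparison were named. PTPRH, PTPRU, PTPRZ1, PTPRS, PTPRB, PTPRR, PTPN3, PTPN7, PTPN9, PTPN20, PTPN21, PTPN23, PTPN5, PTPRN, PTPRN2 and PTPRO were named after their values were seen. Alternatives were a fit with all two-way interactions, transfection as 3 levels, no intensity trend, median centring, quantile and cyclic loess normalization, genes above the median signal, the mean over clusters, and leaving out each array.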

Additional observations from a re-analysis of the deposited data

Results flagged for a closer look

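The melphalan response of 11 members differed between U266/LR7 and U266/s by a test of the difference itself, the interaction term (limma adjusted p under 0.05). The U266/LR7 response minus the U266/s response was 2.10 for PTPRK, 1.72 for PTPN2, 1.43 for PTPN13, 1.27 for PTPN22 and 1.18 for PTPN12. It was 0.99 for PTPN1, 0.95 for PTPN3, 0.71 for PTPRM, 0.68 for PTPN18 and 0.64 for PTPRD. PTPRK had log2 signals of 4.97 to 5.37 and PTPRD of 4.98 to 5.20 on the U266/LR7 arrays, all below the lower quartile of genes, and PTPRM lay below it there with melphalan. A fall of these 3 genes in U266/LR7 could be measured poorly or not at all, and their values rest on the U266/s fall. PTPN6 had the 1 negative value, -0.71. Each line's response rests on 2 arrays with melphalan and 2 without, and over all genes 23.9% had a called interaction.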

How the results depend on the processing

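No paired analysis was possible because each condition has 1 array and the labels give no replicate numbers to use as a block; arrays with and without inhibitors were matched by line and melphalan state through the terms of the fit itself. Of 68 called values of members, 57 kept their call in every setting in which the gene was tested and 43 without every single array, and 0 were reversed. Among genes above the median signal, which holds 12 members, the counts called were 8 for the lines without melphalan, 10 for the lines with melphalan, 8 for melphalan in U266/s, 7 for the interaction and 3 for melphalan in U266/LR7, because fewer members were tested. Over all genes above the median signal, the counts called in the same order were 4626, 6207, 5573, 3719 and 1263. When single arrays were left out, the counts ranged between 14 and 19 for the lines without melphalan, 15 and 23 with melphalan, 12 and 15 for melphalan in U266/s, 1 and 4 in U266/LR7, 6 and 11 for the interaction, and 0 and 0 for the inhibitors. Over all genes the inhibitors called 0 to 11 genes in that case and 1 to 20 in the other settings. For the other comparisons these ranges over all genes were 4430 to 6403 for the lines without melphalan (6397 with all arrays), 6152 to 10130 with melphalan (9529), 4258 to 8746 for melphalan in U266/s (7984), 250 to 1472 in U266/LR7 (1220) and 2443 to 5253 for the interaction (4394). PTPN12 in U266/LR7 lost its call with transfection as 3 levels (-0.70, adjusted p = 0.0995), and PTPN4 there with quantile normalization (-0.79, adjusted p = 0.0535) and cyclic loess (-0.88, adjusted p = 0.0557). The PTPRM interaction was lost with all two-way interactions (0.71, adjusted p = 0.0505), median centring (0.61, adjusted p = 0.0622), cyclic loess (0.65, adjusted p = 0.0523) and quantile normalization (0.39, adjusted p = 0.213). That of PTPN18 was lost with all two-way interactions (0.68, adjusted p = 0.059), median centring (0.59, adjusted p = 0.0647) and quantile normalization (0.43, adjusted p = 0.167), and that of PTPRD with median centring (0.54, adjusted p = 0.0522). Between the lines with melphalan, PTPN23 was lost with cyclic loess (0.38, adjusted p = 0.0505) and quantile normalization (0.35, adjusted p = 0.0763). PTPRB, PTPRD, PTPRH and PTPRR were lost there in both, at -0.27, -0.32, -0.33 and -0.24 after quantile normalization. PTPRZ1 without melphalan was lost with all two-way interactions (-0.44, adjusted p = 0.0501) and quantile normalization (-0.37, adjusted p = 0.063). Other calls were gained. Between the lines with melphalan these included PTPN11 with all two-way interactions and PTPRU after quantile normalization and cyclic loess. For melphalan in U266/s they included PTPRG with no intensity trend (-0.49, limma adjusted p = 0.0467). PTPN21 was gained there with all two-way interactions (-0.47, limma adjusted p = 0.0265) and after cyclic loess (-0.67, limma adjusted p = 0.0273). The cause was not tested. Median centring moved the median of all genes to 0.14 for melphalan in U266/s, -0.15 for the lines with melphalan and -0.11 for the interaction. The 5 members that lay below the lower quartile of genes on all arrays have little signal over background.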
